A study of Mus musculus with 2 samples.

Results

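The Mir34 and Mir449 family comprises 6 mouse microRNA genes: Mir34a, Mir34b, Mir34c, Mir449a, Mir449b and Mir449c. They were taken by gene symbol and make 6 of the 2202 microRNA genes in the deposited tables. The tables hold counts from small RNA of mouse hippocampus, labelled as a layer of it without naming which. The mice were 14-day-old B6CASTF1/J females, a first-generation cross of C57BL/6J and CAST/EiJ, and no treatment or allele is given. There was 1 group with 2 biological replicates, each a pool of 3 females with 1 library, so no conditions could be compared. A difference between replicate 2 and replicate 1 cannot be told apart from a difference between library preparations.

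A microRNA pairs with messenger RNAs mainly through its seed, bases 2 to 8 from its 5′ end, and lowers their translation or stability. Mir34a is expressed in many tissues and is induced by the tumour suppressor p53. Mir34b and Mir34c come from a shared transcript, and the Mir449 genes lie within Cdc20b. These 5 genes are known for their abundance in multiciliated cells, where the family helps build motile cilia by repressing Ccp110, a centriolar protein that holds back cilium assembly. In the brain, multiciliated cells are the ependymal cells that line the ventricles and the epithelial cells of the choroid plexus.

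The mature sequences show what the members share and how they can be told apart. Of the 6 genes, 5 matched the RefSeq table of mature microRNAs (build GRCm38.p6), with 9 sequences; mmu-miR-34c-5p and the products of Mir449b were not matched. The 4 matched sequences of the 5′ arm are given 5′ to 3′ with the seed in capitals.
mmu-miR-34a-5p: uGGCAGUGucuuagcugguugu
mmu-miR-34b-5p: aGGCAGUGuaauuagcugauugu
mmu-miR-449a-5p: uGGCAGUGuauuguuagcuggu
mmu-miR-449c-5p: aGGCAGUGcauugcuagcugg

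All 4 of these carry the seed GGCAGUG. None of the other mature sequences in the table, which holds 1679 distinct ones, has this seed. Beyond the seed they differ. Counted from the 5′ end, miR-449a-5p and miR-449c-5p were identical at 18 of 21 positions, miR-34a-5p and miR-449a-5p at 15 of 22, and miR-34b-5p and miR-449a-5p at 10 of 22. The 3′ arms do not share a seed across the family, but those of the neighbours Mir34b and Mir34c do, and they are shown for that reason.
mmu-miR-34b-3p: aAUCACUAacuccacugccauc
mmu-miR-34c-3p: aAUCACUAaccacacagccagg

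These 3′ arms were identical at 17 of 22 positions. Mature lengths in the family ran from 21 to 23 bases, so levels were compared as counts scaled to a library total of 1000000 (CPM), without a further correction for length. A count is for the whole gene, and reads from its 5′ and 3′ arms are not separated. The longest run of bases that any member shared with another microRNA gene on either strand was 14, between Mir449a and Mir679. Mir34b and Mir34c shared 11 bases at most. A read as long as a mature sequence therefore has no exact match in a second annotated microRNA gene; matches elsewhere in the genome were not examined.

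In GRCm38, Mir34a (ENSMUSG00000065493.1) lies at chromosome 4, 150068454 to 150068555, on the plus strand. It is outside any protein-coding gene, and its last 17 bases overlap the unclassified gene model Gm37795. Mir34c (ENSMUSG00000065587.1) lies at chromosome 9, 51103034 to 51103110, on the minus strand, and Mir34b (ENSMUSG00000065492.1) at 51103562 to 51103645, with 451 bases between them. Both are within an intron of Btg4 and on the strand opposite to it. Mir449c (ENSMUSG00000076146.1), Mir449b (ENSMUSG00000078027.1) and Mir449a (ENSMUSG00000065575.1) lie in this order on chromosome 13, plus strand, at 113035983 to 113036091, 113037419 to 113037498 and 113037534 to 113037624. All 3 are within introns of Cdc20b on its own strand, with 1327 bases between Mir449c and Mir449b and 35 between Mir449b and Mir449a.

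Counts assigned to microRNA genes summed to 2852269 in replicate 2 and 4764797 in replicate 1, of 7838361 and 13195465 reads. In both tables a further 37.1% and 40.8% of reads were multi-mapping and counted in no gene. A count of 0 allows a level of up to 1.05 CPM in replicate 2 and 0.630 CPM in replicate 1, taken as 3 counts of the total. Intervals are exact (Clopper-Pearson) at 95% and cover counting error only, not variation between libraries. Amplified reads without molecular identifiers are not independent molecules, so the intervals may be too narrow. As a check for neurons, 10 of 13 neuronal microRNA genes reached 10 counts in each library, against 18.6% of all 2202 genes. These genes do not check the region or layer. They were led by the activity-induced Mir132, at 7461 and 4678 CPM in replicates 2 and 1, and by Mir137, which acts in neuronal maturation, at 4153 and 6526 CPM. The 3 copies of Mir124a give the same mature sequence, and reads that map to several places are counted in no gene. Their counts were low, with 18 and 10 counts for Mir124a-1, 1 and 2 for Mir124a-2, and 1 and 0 for Mir124a-3. Mir9-2 was also under 10 counts, with 4 in replicate 2 and 9 in replicate 1.

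The family held 0.134% of the assigned counts in replicate 2 (95% interval 0.129 to 0.138) and 0.212% in replicate 1 (0.208 to 0.217), a mean of 0.173% ± 0.0557 (SD, n = 2). Of the 6 members, 4 reached 10 counts in each library, against 18.6% of all 2202 genes. The other 2 were at or under 3 counts in each library. Mir449a, Mir34c and Mir34a were the abundant members, Mir34b was far lower, and Mir449c and Mir449b stood at or near 0.

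**Figure D1:**
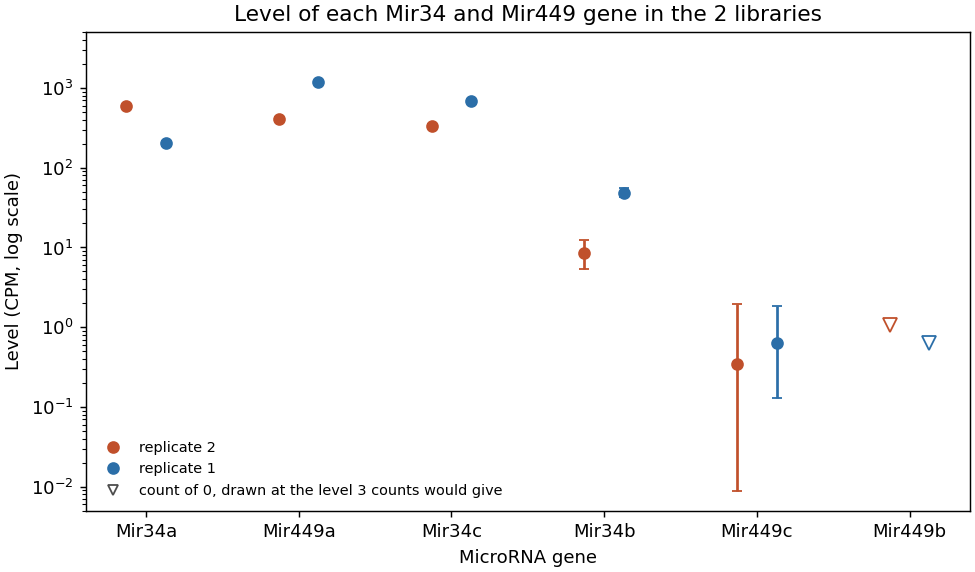
Level of each gene in CPM on a log axis, replicate 2 left and replicate 1 right, with exact 95% counting intervals; open triangles mark counts of 0. Mir34a is the only one of the 4 detected members whose replicate 2 point is the higher one.

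Mir34a had 1677 counts in replicate 2 and 965 in replicate 1. These are 588 CPM (560 to 617) in replicate 2 and 203 CPM (190 to 216) in replicate 1, a mean of 395 ± 273 CPM (SD, n = 2). It was thus higher in the shallower library, and the 2 counting intervals did not overlap. By level it ranked 129 of 2202 genes in replicate 2 and 181 in replicate 1. Over both libraries its mean lay between those of Mir376c, at 400 ± 144 CPM, and Mir1843b, at 367 ± 30.6 CPM, and its SD was larger than either neighbour's.

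Mir449a, the member in Cdc20b that carries the counts of its cluster, had 1151 counts in replicate 2 and 5619 in replicate 1. Its level was 404 CPM (381 to 428) in replicate 2 and 1179 CPM (1149 to 1211) in replicate 1, with a mean of 791 ± 549 CPM (SD, n = 2), the highest mean in the family. Its rank was 143 in replicate 2 and 102 in replicate 1, and its mean lay between Mir346 at 792 ± 204 CPM and Mir20a at 732 ± 69.8 CPM. The other genes of the cluster were barely seen. Mir449c had 1 count in replicate 2 and 3 in replicate 1, or 0.0868% (0.00220 to 0.483) and 0.0534% (0.0110 to 0.156) of the Mir449 counts. Mir449b had 0 counts in both libraries, like 1414 of the 2202 genes (64.2%). For Mir449b this allows a level of up to 1.05 CPM in replicate 2 and 0.630 CPM in replicate 1, although it lies only 35 bases from Mir449a. Nearly all counts of the intronic cluster therefore fell on a single gene.

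Mir34c, the more abundant gene of the Mir34b and Mir34c transcript, had 957 counts in replicate 2, against 3298 in replicate 1. Its level was 336 CPM (315 to 357) in replicate 2 and 692 CPM (669 to 716) in replicate 1, a mean of 514 ± 252 CPM (SD, n = 2). Mir34c ranked 158 in replicate 2 and 122 in replicate 1, between Mir188 at 532 ± 184 CPM and Mir673 at 511 ± 238 CPM on the mean. Mir34b, transcribed just upstream, had 24 counts in replicate 2 and 233 in replicate 1. That is 8.41 CPM (5.39 to 12.5) in replicate 2 and 48.9 CPM (42.8 to 55.6) in replicate 1, a mean of 28.7 ± 28.6 CPM, at ranks 336 and 243. On the mean it lay between Mir758 at 29.0 ± 5.64 CPM and Mir344b at 27.7 ± 13.9 CPM.

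The pair from a shared transcript was unequal in both libraries. Mir34c had 39.9 counts for each Mir34b count in replicate 2 and 14.2 in replicate 1. Mir34b made up 2.45% (1.57 to 3.62) of their joint counts in replicate 2 and 6.60% (5.80 to 7.47) in replicate 1. The ratio of Mir34b to Mir34c differed between replicates 2 and 1 by -1.49 on the log2 scale (-2.17 to -0.87), a value that does not depend on library size.

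**Figure D2:**
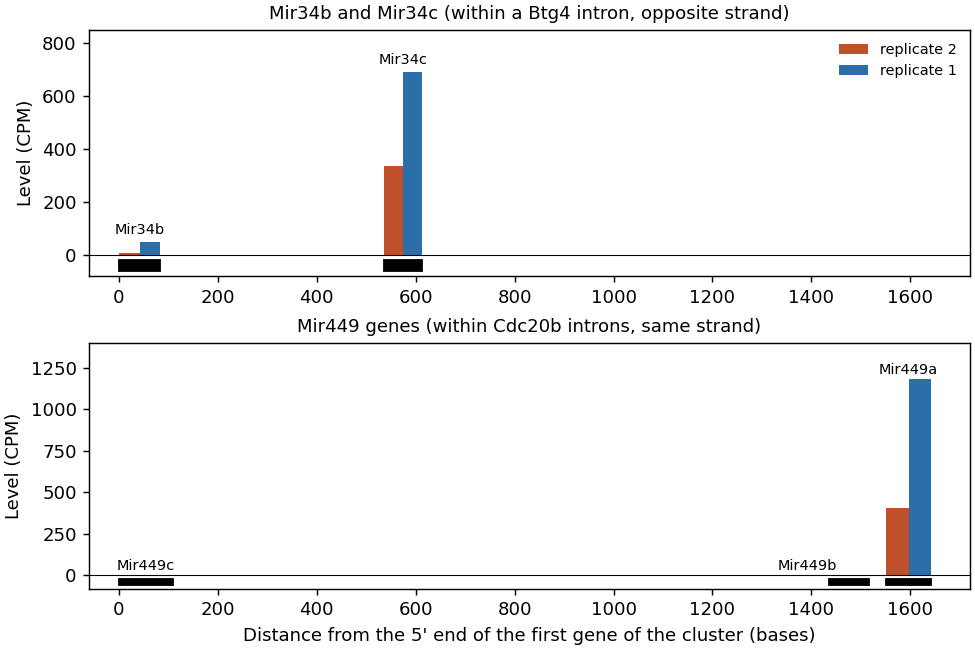
Levels in CPM of the clustered genes, replicate 2 left and replicate 1 right within each gene, against distance in bases from the 5′ end of the first gene; black boxes are the annotated genes. Within each cluster nearly all counts fall on 1 gene, Mir34c above and Mir449a below.

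The order of levels was not the same in the 2 libraries. In replicate 2 it was Mir34a, Mir449a, Mir34c and Mir34b, and in replicate 1 it was Mir449a, Mir34c, Mir34a and Mir34b. Within a library the counting intervals of these neighbours did not overlap. Over the 2 libraries the ranges of mean ± SD of Mir449a, Mir34c and Mir34a overlapped, so their order is not settled. Mir34b was the lowest of the 4 in both libraries. Mir34a held 44.0% of the family's counts in replicate 2 (42.4 to 45.6) and 9.54% in replicate 1 (8.97 to 10.1). Mir449a held 30.2% (28.8 to 31.7) in replicate 2 and 55.5% (54.6 to 56.5) in replicate 1, and Mir34c held 25.1% (23.7 to 26.5) and 32.6% (31.7 to 33.5) in the same order.

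**Figure D3:**
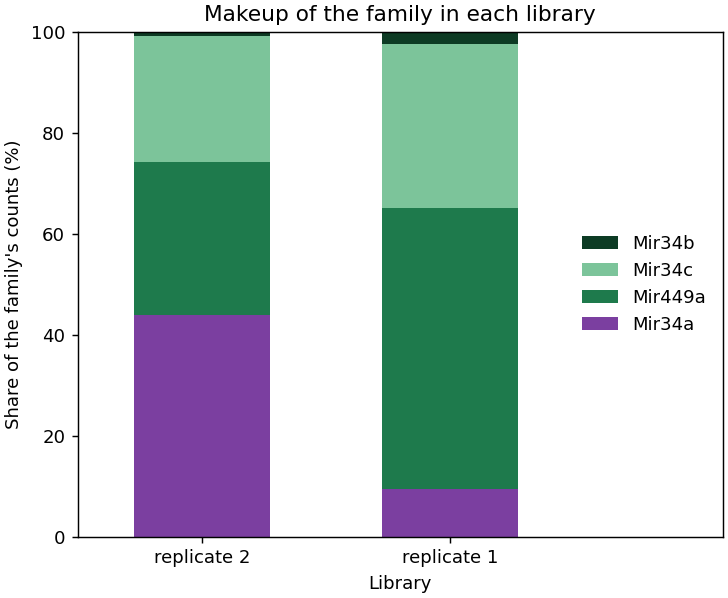
Share of the family's counts by gene, in percent, replicate 2 left and replicate 1 right; Mir449c and Mir449b are too small to draw. Mir34a takes 44.0% of the bar in replicate 2 and 9.54% in replicate 1.

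The libraries were then compared gene by gene. The ratio is replicate 2 over replicate 1, after TMM scaling in edgeR, for the 450 genes whose counts over both libraries summed to 20 or more, a filter that 4 members passed. With 1 library a side there is no replicate check and no p-value, and a gene counts as past the limit when its ratio exceeds 2-fold. By this rule 3 of the 4 members passed, against 22.0% of all 450 genes. Lower in replicate 2 by more than 2-fold were Mir449a and Mir34b (background 11.3%), and higher by more than 2-fold was Mir34a (background 10.7%). With 4 members these counts are few, and they describe these 2 libraries.

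Mir34a had a log2 ratio of 1.66 (1.54 to 1.78), or 3.16-fold higher in replicate 2, and 16 of the 450 genes had a larger ratio. Mir449a had a log2 ratio of -1.42 (-1.52 to -1.33), and 31 genes had a lower one. Mir34b gave -2.42 (-3.09 to -1.81), with 10 genes lower, and its interval is wide because replicate 2 holds 24 counts of it. Mir34c gave -0.92 (-1.03 to -0.82), with 59 genes lower, and stayed within 2-fold. With total counts as library sizes, which moves the median ratio of all genes to -0.11, against 0.01 under TMM, Mir34c also passed 2-fold at -1.04. The median over the 4 members was -1.17, but it joins ratios of opposite sign. Summed, the 5 genes other than Mir34a had 2133 counts in replicate 2 and 9153 in replicate 1, or 748 and 1921 CPM, with a log2 ratio of -1.24 (-1.31 to -1.17). The whole family gave -0.55 (-0.60 to -0.49).

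**Figure D4:**
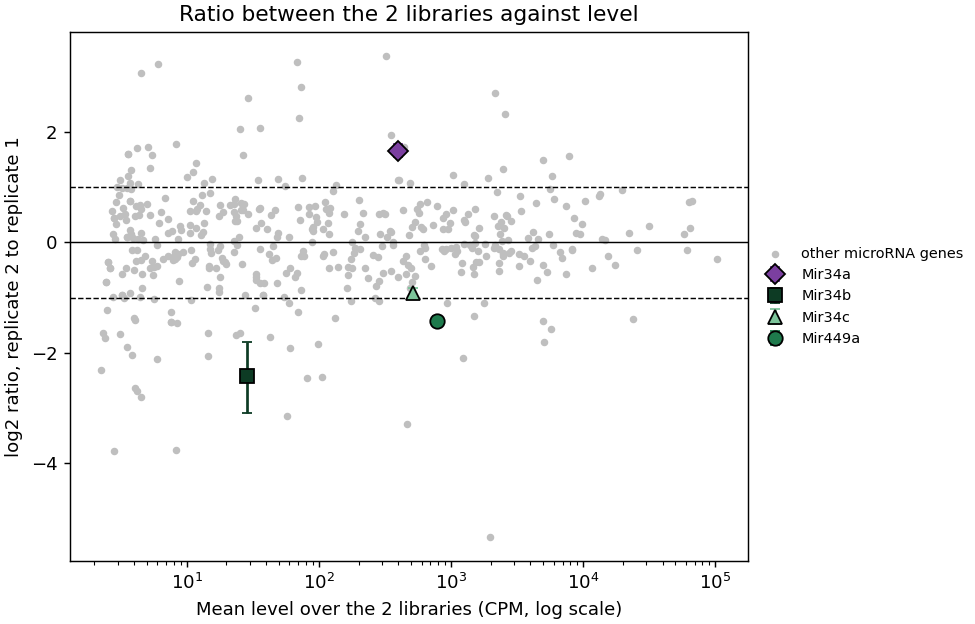
Log2 ratio of replicate 2 to replicate 1 against mean level in CPM (log axis) for the 450 genes whose counts sum to 20 or more; bars are exact 95% counting intervals and dashed lines mark 2-fold. Mir34a lies above the upper line at 1.66, Mir449a and Mir34b lie below the lower one, and Mir34c sits just inside it.

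Ratios of a member to another within a library do not depend on library size. They come from the same counts as the ratios above and restate the separation of Mir34a from the rest. Mir34a had 1.46 counts for each Mir449a count in replicate 2 and 0.172 in replicate 1, a difference of 3.08 on the log2 scale (2.94 to 3.23). For each Mir34c count there were 1.75 of Mir34a in replicate 2 and 0.293 in replicate 1, which is a difference of 2.58 (2.43 to 2.74). Against Mir34b the difference was 4.08 (3.45 to 4.76). The other members differed less from each other. Mir449a had 1.20 counts for each Mir34c count in replicate 2 and 1.70 in replicate 1, a difference of -0.50 (-0.64 to -0.36). These intervals all lie to a single side of 0, so at the level of counting error the members other than Mir34a were not in a fixed ratio either.

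Most microRNAs of the choroid plexus outside the family were lower in replicate 2, as were Mir34b, Mir34c and Mir449a. Of 7 such genes, 5 were lower in replicate 2 by more than 2-fold, against 11.3% of all 450 genes, and none was higher. The median log2 ratio was -2.44 (range -5.33 to -0.46), against 0.01 over all 450 genes. Several of the 7 share the host gene Htr2c, so they may not vary independently. The list was chosen with earlier results of these data known, so its counts only describe these 2 libraries. The 2 within 2-fold were Mir764 at -0.83 (-1.43 to -0.26) and Mir211, with 6 counts in replicate 2 and 15 in replicate 1, at -0.46 (-2.11 to 0.99). The list summed to 0.0584% of the counts in replicate 2 and 0.619% in replicate 1. It was led by Mir1298, from an intron of that serotonin receptor gene, at 88.0 CPM in replicate 2 and 3846 in replicate 1, and by Mir204, abundant in choroid plexus epithelium, at 439 and 2027 CPM. The part of choroid plexus tissue in the family's ratios was not tested. In bulk tissue, fewer cells of a type and less RNA per cell cannot be told apart.

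Relative to Mir204, the summed counts of the 5 genes other than Mir34a were higher in replicate 2. There were 1.70 counts for each Mir204 count in replicate 2 and 0.948 in replicate 1, a difference of 0.85 on the log2 scale (0.74 to 0.96). For Mir449a alone it was 0.66 (0.53 to 0.79), and for Mir34c alone 1.16 (1.03 to 1.30). For Mir34b the value was 0.0192 counts for each Mir204 count in replicate 2 and 0.0241 in replicate 1, a difference of -0.33 whose interval includes 0 (-1.01 to 0.28). Mir34c and Mir449a were thus lower in replicate 2, but by less than Mir204. The outcome depends on the reference, which was picked after its values were seen. Of the same list, Mir764 at -0.83 (-1.43 to -0.26) and Mir211 at -0.46 (-2.11 to 0.99) had less negative ratios than Mir34c and Mir449a. Both intervals contain the ratios of Mir34c (-0.92) and Mir449a (-1.42), so this order is not settled by the counts. The other 5 genes of the list were lower by more than 2-fold.

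Most markers of other epithelium were higher in replicate 2. This list, too, was chosen with earlier results of these data known, and its counts only describe these 2 libraries. Of 10 epithelial genes, 9 passed the filter. Of these, 7 were higher in replicate 2 by more than 2-fold, against 10.7% of all 450 genes, and none was lower by as much. The median log2 ratio was 2.26 (range -0.74 to 3.28). The other 2 were Mir203, at 34.4 CPM in replicate 2 and 62.3 in replicate 1 with a log2 ratio of -0.74 (-1.08 to -0.40), and Mir205 at 0.07 (-1.14 to 1.22). They summed to 0.0543% of the counts in replicate 2 and 0.0173% in replicate 1. The leading genes were Mir429, at 126 CPM in replicate 2 and 19.5 in replicate 1, and Mir200c, at 115 and 26.2 CPM, both of the mir-200 family that maintains epithelial identity. Their part in the higher level of Mir34a in replicate 2 was not tested.

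With 2 libraries, likeness of pattern reduces to likeness of the ratio, measured as the absolute difference of log2 ratios over the 269 other genes that averaged 100 counts or more. Nearest to Mir34a were Mir451a at 1.73 (difference 0.072), Mir298 at 1.56 (0.099) and Mir138-1 at 1.5 (0.16). Nearest to the summed other members were Mir148b at -1.25 (0.015), Mir24-2 at -1.19 (0.049) and Mir195a at -1.34 (0.10). Of these 6, Mir451a, Mir138-1 and Mir24-2 have a run of 20 or more bases in common with another microRNA gene. The run was sought on either strand, and their counts may be uncertain. A run on the opposite strand need not be a second place that reads map to. Mir451a had 1892 sense counts in replicate 2 and 1036 in replicate 1, and Mir24-2 had 54 and 224. Both had 0 counts on the opposite strand and 0 in the unstranded column. Likeness over 2 points is a description of these libraries.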

How the data were processed

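Each library has a deposited table of raw read counts by microRNA gene, which the authors made on mm10 (GRCm38) with GENCODE M21, per the text deposited with the counts. Aligner and counter: not given in the sources used here. All 2202 identifiers matched M21, which gave symbols, coordinates and hosts. The strand column with more counts served as sense. Reads listed as unmapped, multi-mapping, outside genes or ambiguous were left out of totals.

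Computed here were CPM with mean and SD over 2 libraries, exact intervals from binomial shares, log2 ratios with TMM-scaled sizes (edgeR 4.0.16, R 4.3.3) for genes whose counts summed to 20 or more, and exact conditional odds ratios for pairs (scipy 1.17.1, Python 3.11.15). Pairs with Mir204 were added after its values were seen. The ratio step was tested on simulated counts that held counting error only, so this checks the arithmetic and not the spread of real libraries. The members and lists were chosen with earlier results of these data known. All members were named, with their neighbours in mean level, the 3 genes nearest in ratio to Mir34a and to the other members summed, and the leading 2 of each list. The Mir124a copies, Mir9-2, Mir203, Mir205, Mir211 and Mir764 were named after their values were seen. Alternatives included DESeq2 1.42.0 size factors. The replicates are pools of different animals per the labels.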

Additional observations from a re-analysis of the deposited data

Results flagged for a closer look

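Mir34b had 4 counts on the opposite strand in replicate 1, above the 3 counts that a count of 0 allows, and 1 in replicate 2. It had 24 sense counts in replicate 2 and 233 in replicate 1. That strand is the one of Btg4, in whose intron Mir34b lies. No opposite-strand count was recorded for the other 5 members.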

How the results depend on the processing

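Of 28 recomputed ratios of the 4 measured members, none changed sign and 24 stayed within the counting interval. With total counts as library sizes, Mir34a gave 1.54, Mir449a -1.55 and Mir34c -1.04, each shifted by the same scaling. With a pseudocount of 10 CPM Mir34b gave -1.60, since its own level in replicate 2 is under 10 CPM. Members past 2-fold numbered 3 in each alternative except total counts (4), a limit of 1.5-fold (4) and a limit of 3-fold (2). The count of all genes past the limit was 172 of 649 without a filter, 52 of 273 at a summed count of at least 200, 191 of 450 past 1.5-fold and 47 of 450 past 3-fold, against 99 of 450. The family's share was 0.0626% with all reads as the total, and ran from 0.134% to 0.212% with either replicate left out. Mir34a's share of the family ran from 9.54% to 44.0% likewise; with 2 libraries, each always lies within 1 SD of their mean. The number of detected members was 4 at minimums of 5 and 20 counts, with the deeper library thinned to the depth of the other, and with either replicate left out. No paired analysis was possible because the labels give 1 group. Depth limits Mir449c and Mir449b, whose levels lie at or under what 3 counts give in each library.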

Other observations

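MicroRNAs linked to the tumour suppressor p53 were set beside Mir34a, from a list that leaves out all family members. It was chosen with earlier results of these data known. Of 9 genes, 7 had counts that summed to 20 or more. Only Mir107 of these was higher in replicate 2 by more than 2-fold, at 4181 CPM in replicate 2 and 911 in replicate 1 with a log2 ratio of 2.32 (2.27 to 2.37), and none was lower by as much. Mir107 shares 24 bases with Mir103-2 and is uncertain. The list's median log2 ratio was 0.37 (range -0.67 to 2.32), against 0.01 over all 450 genes. The most abundant gene of the list, Mir143, gave -0.67 (-0.71 to -0.64), at 3305 CPM in replicate 2 and 5729 in replicate 1. The neuronal list had 4 genes higher and 2 lower by more than 2-fold among 10, with a median of 0.28. Over all 450 genes, 10.7% were higher and 11.3% lower by more than 2-fold.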
